A study of Homo sapiens with 2 samples.

Results

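The BCL2 family decides whether a cell releases cytochrome c from its mitochondria and dies by apoptosis. The genes described here are 10 of its members, chosen by symbol, with Ensembl identifiers matched to GENCODE release 44, out of 58735 gene identifiers in the count tables. They comprise 4 anti-apoptotic genes (BCL2, BCL2L1, MCL1 and BCL2A1), 2 pore formers (BAX and BAK1) and 4 BH3-only genes (BAD, BID, BBC3 and PMAIP1). Their counts came from 2 libraries of matched polyadenylated RNA, 1 per platform. The cells of both libraries were MCF10a-Snail-ER, a derivative of the non-tumorigenic human mammary epithelial line MCF10a in which a fusion of Snail, the repressor of epithelial genes, with the estrogen receptor is stably expressed. Both had received 100 nM tamoxifen for 1 day, which activates the fusion and starts an epithelial-to-mesenchymal transition. They were grown with horse serum, EGF, hydrocortisone, cholera toxin and insulin. No untreated library was analysed here, so the comparison was between Nanopore direct RNA sequencing on the MinION, where a native RNA strand is read as 1 molecule, and an Illumina TruSeq stranded mRNA library, where RNA is fragmented and copied into cDNA.

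Anti-apoptotic members hold the pore formers BAX and BAK1 in check at the outer mitochondrial membrane. BH3-only proteins respond to stress or lost survival signals, bind the anti-apoptotic members through a short helix called the BH3 domain and thereby free BAX and BAK1, or activate these directly. Once BAX and BAK1 open the membrane, cytochrome c assembles the apoptosome with APAF1 and caspase-9, which starts the caspase cascade. In epithelial cells MCL1 and BCL2L1 are the commonly used guardians, MCL1 being a protein of very short half-life, and BCL2A1 is known mainly from blood cells.

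The BH3 helix is the part that all sides of the family share, and its coding sequence was looked up in each member. In the GENCODE canonical transcript of each gene the reading frame was searched for a leucine codon, any 3 codons, a codon for glycine, alanine or serine, and an aspartate codon. The pattern was present in 9 of the 10 members and not found in that of BCL2A1. The 42 bases around it are printed 5′ to 3′ on the coding strand, with the leucine codon and the last pair of codons of the pattern in capitals.
MCL1 (chr1:150578865-150578906, hg38, minus strand): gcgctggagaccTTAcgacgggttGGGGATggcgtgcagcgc
BCL2L1 (chr20:31721922-31721963, minus strand): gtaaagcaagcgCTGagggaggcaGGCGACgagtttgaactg
BCL2 (chr18:63318349-63318390, minus strand): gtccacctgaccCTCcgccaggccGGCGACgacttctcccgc
BAX (chr19:48955775-48955816, plus strand): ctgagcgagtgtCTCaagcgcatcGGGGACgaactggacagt
BAK1 (chr6:33575387-33575428, minus strand): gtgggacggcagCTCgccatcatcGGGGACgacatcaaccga
BAD (chr11:64271622-64271663, minus strand): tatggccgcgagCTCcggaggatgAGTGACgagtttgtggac
BID (chr22:17739415-17739456, minus strand): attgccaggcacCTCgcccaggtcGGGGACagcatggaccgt
BBC3 (chr19:47226579-47226620, minus strand): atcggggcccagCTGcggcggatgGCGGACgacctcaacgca
PMAIP1 (chr18:59902661-59902702, plus strand): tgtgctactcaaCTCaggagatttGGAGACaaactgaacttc

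The glycine codon was kept in 7 of these 9 stretches. BAD had a serine codon and BBC3 an alanine codon in its place. BID held a second match near its start, with the leucine at residue 25. The shown one has its leucine at residue 90, where the BID helix is known to lie. The groups part at another stretch, the BH1 motif Asn-Trp-Gly-Arg. It was encoded once in each of the 4 anti-apoptotic genes and in BAX and BAK1, and in none of the 4 BH3-only genes. The transcripts also differed in size: BAX (795 bases), BCL2A1 (780) and BAD (929) were the shortest, and BCL2 (6881) and MCL1 (3950) were the longest. The untranslated tail after the stop codon made up 5279 bases of the BCL2 transcript, 2817 of MCL1 and 162 of BAX.

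Depth was 403235 counts by Nanopore and 191741714 by Illumina, so 3 counts, taken here as the smallest level a library can show, stood for 7.44 and 0.0156 counts per 1000000 (CPM). No value has a replicate. With 1 library per platform every interval is an exact 95% interval that covers counting error only. Amplified Illumina reads are not independent molecules, so the Illumina intervals can be too narrow even for that. The basal mammary epithelial markers fixed for the check of the label were detected in both libraries, 8 of 8, with KRT5 at 1686 CPM by Nanopore and 1447 CPM by Illumina. Their levels were uneven. S100A2 was highest, at 5989 CPM by Nanopore and 7687 CPM by Illumina, and TP63 had 5 Nanopore counts. EPCAM had only 3 Nanopore counts and 4.02 CPM by Illumina. CDKN2A and CDKN2B, known to be deleted in MCF10a, had no count in either. Of the 5 leukocyte markers, CD14 had 5 and 2100 counts, and PTPRC, CD3E, CD79A and LYZ had none by Nanopore and at most 4 by Illumina. The 3 endothelial and 4 fibroblast markers had no Nanopore count and were all detected by Illumina. PECAM1 (5.07 CPM) and COL1A1 (4.93 CPM) led them, both above EPCAM, and LUM was at 1.23 CPM. The Illumina levels of the endothelial and fibroblast markers sum to 5.16 and 6.61 CPM, and their part in the results was not tested. The epithelial markers sum to 10538 CPM, of which S100A2 alone gave 7687. In bulk RNA a level does not tell how many cells hold a transcript from how much each cell holds.

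Illumina counts grow with the length of a transcript, whereas a direct RNA read stands for 1 strand. Levels of different genes were therefore compared as Nanopore CPM and as Illumina TPM (transcripts per 1000000), the counts divided by the length of the canonical transcript and rescaled. On both scales MCL1 stood far above all other members. It had 164 of the 240 Nanopore counts of the family, 68.3% (62.0 to 74.2%), and 61.1% of the family's Illumina TPM. Among the anti-apoptotic members alone its share was 95.3% by Nanopore (91.0 to 98.0%) and 92.0% by Illumina TPM. The 4 anti-apoptotic genes together held 71.7% of the family by Nanopore (65.5 to 77.3%) and 66.4% by Illumina TPM. Without MCL1 these shares were 10.5% (4.66 to 19.7%) and 13.6%, so most of the remaining transcripts came from pro-apoptotic members. The share of the BH3-only genes was 17.1% by Nanopore (12.5 to 22.5%) and 7.99% by Illumina TPM, and that of the pore formers was 11.2% (7.55 to 15.9%) and 25.6%. Gene counts do not separate splice forms, so in these shares every gene, MCL1 included, was counted whole in its group.

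The order of levels by Nanopore after MCL1 (407 CPM) was BAD (57.0), BAX (44.6), BAK1 and BID (22.3 each), BCL2L1 and PMAIP1 (19.8 each) and BBC3 (2.48), with BCL2 and BCL2A1 at 0. The interval of MCL1 overlapped no other. Neighbours from BAD to BBC3 had overlapping intervals, so the order of neighbours was not resolved at this depth. The intervals of BAD (36.2 to 85.6) and BAX (26.5 to 70.5) lay above that of BBC3 (0.0628 to 13.8). Counting error left less of the Illumina order open, but that order also rests on the length used. With canonical length, after MCL1 (473 TPM) came BAX (152), then BAD (47.6) and BAK1 (45.8), a pair with overlapping intervals, then BCL2L1 (39.6), BID (8.16), PMAIP1 (3.31), BBC3 (2.71), BCL2 (1.21) and BCL2A1 (0.0725). With union exonic length BAX fell to 81.8 TPM, close above BAK1 at 78.6 but with no overlap of the intervals, and BAK1 stood above BAD (45.3). With mean transcript length BAX was at 134, BAD at 53.6 and BAK1 at 35.2. The first rank of MCL1 and the ranks from BCL2L1 down were the same with all 3 lengths. PMAIP1 was level with BCL2L1 by Nanopore, with 8 counts each, and was far below it by Illumina.

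**Figure D1:**
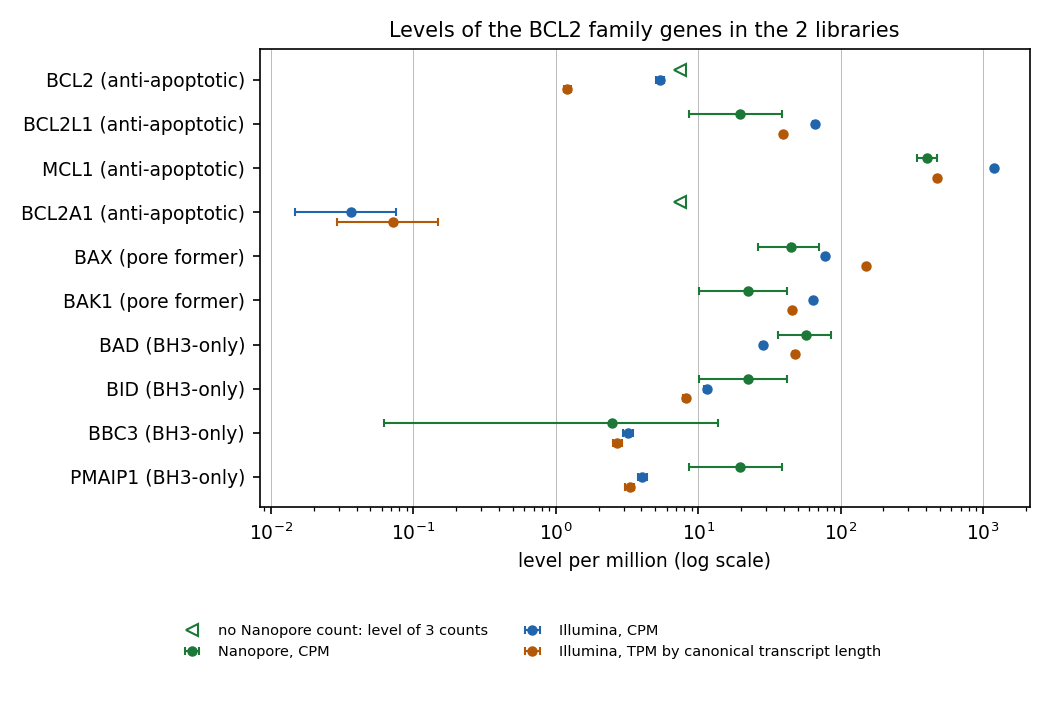
Level of each member on a log axis, as Nanopore CPM, Illumina CPM and Illumina TPM by canonical transcript length, 1 library each, with exact 95% counting intervals; an open triangle marks 0 Nanopore counts at the level of 3 counts, 7.44 CPM. MCL1 lies above all other members in both libraries, at 407 Nanopore CPM and 473 Illumina TPM, and BCL2A1 lies lowest by Illumina.

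The libraries were then compared gene by gene with a two-sided exact binomial test, given the library totals, over the 12414 genes whose mean over the libraries reached 5 CPM, adjusted by the Benjamini-Hochberg method. It speaks of this pair of libraries and not of the 2 technologies. A gene was called when its adjusted p was under 0.05 and its levels differed by 2-fold or more on the log2(CPM + 1) scale, which understates the change of rare genes. By this rule the Nanopore level was the higher one for 17.7% of all tested genes (2197) and the Illumina level for 21.7% (2699). Against Illumina TPM the split was 29.9% (3492) and 7.74% (905) of 11690 tested genes, and the median log2 ratio of all tested genes moved from −0.42 to 0.49. Of the 10 members 7 passed the filter on low values. BCL2, BCL2A1 and BBC3 did not. Against Illumina CPM 1 member was called higher by Nanopore (PMAIP1) and 3 were called higher by Illumina (MCL1, BCL2L1 and BAK1). Against TPM the called members were PMAIP1 and BID, higher by Nanopore, and BAX, higher by Illumina. With so few members these counts cannot be set apart from the background shares.

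The anti-apoptotic members came first. MCL1 (ENSG00000143384, chromosome 1, 150560895 to 150579738, hg38) had 164 counts by Nanopore, 407 CPM (347 to 474), and 231029 by Illumina, 1205 CPM. The Nanopore level was 0.338 of the Illumina CPM (0.288 to 0.393), a log2 ratio of −1.56 (exact binomial adjusted p = 1.75e-62). Of the members this was the difference with the smallest adjusted p. Against Illumina TPM the ratio was 0.860 (0.734 to 1.00) and the exact binomial adjusted p 0.108. With union exonic length the log2 ratio was −0.37, under 2-fold, with an exact binomial adjusted p of 0.00259. Its log2 ratio stood at percentile 15.3 of all tested genes in CPM and 28.6 in TPM.

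BCL2L1 (ENSG00000171552, chromosome 20, 31664452 to 31723989), which encodes BCL-XL and, by splicing, the pro-apoptotic BCL-XS, had 8 Nanopore and 12613 Illumina counts. Its levels were 19.8 CPM (8.57 to 39.1) and 65.8 CPM (64.6 to 66.9), which do not overlap. The log2 ratio was −1.68 (exact binomial adjusted p = 2.09e-04). Against TPM the ratio was 0.501 (0.216 to 0.987) and the exact binomial adjusted p 0.0917, so the call was lost, while the percentile hardly moved (13.1 and 12.1). The gene counts do not separate its splice forms.

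BCL2 (ENSG00000171791, chromosome 18, 63123346 to 63320128), the founding member, had no Nanopore count and 1032 Illumina counts, 5.38 CPM (5.06 to 5.72). At the Illumina CPM 2.17 Nanopore counts would have been drawn, and at its TPM 0.489. Its Illumina level lay under the 7.44 CPM of 3 counts, the limit taken for 0 of 403235 counts, and under the exact upper bound of 9.15 CPM, so a difference was not detectable at this depth. BCL2A1 (ENSG00000140379, chromosome 15, 79960892 to 79971196) had no Nanopore count and 7 Illumina counts, 0.0365 CPM (0.0147 to 0.0752). This was the lowest member by Illumina. The leukocyte gene PTPRC had 2 Illumina counts beside it. Whether any of the 7 reads came from other sources was not tested.

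Both pore formers had Nanopore levels below their Illumina levels in CPM and in TPM, but with canonical length each was called on 1 of the scales only. These calls moved with the length used. BAX (ENSG00000087088, chromosome 19, 48954815 to 48961798) had 18 and 14984 counts, 44.6 CPM (26.5 to 70.5) by Nanopore and 78.1 CPM (76.9 to 79.4) by Illumina. The log2 ratio of −0.79 was under 2-fold. Its exact binomial adjusted p of 0.0300 rose to 0.0640 with TMM scaling and 0.0871 with median-ratio scaling. Of the 4 tested members with a lower Nanopore level, BAX was the only one whose gap widened when the Illumina counts were divided by canonical length. Against 152 TPM the ratio was 0.293 (0.174 to 0.463), the exact binomial adjusted p 1.08e-09 and the percentile 4.89, against 36.9 in CPM. The gap was near its CPM size with union exonic length, 2587 bases, for which the log2 ratio was −0.86 and the exact binomial adjusted p 0.0169. With mean transcript length it was −1.56 and called (exact binomial adjusted p = 1.78e-07). BAX overlaps no other annotated gene.

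BAK1 (ENSG00000030110, chromosome 6, 33572547 to 33580293) had 9 and 12304 counts, 22.3 CPM (10.2 to 42.4) and 64.2 CPM (63.0 to 65.3). Its log2 ratio was −1.48 (exact binomial adjusted p = 8.82e-04). Against TPM the ratio was 0.487 (0.223 to 0.925) and it was not called (exact binomial adjusted p = 0.0529). With union exonic length BAK1 was called, at a log2 ratio of −1.77 (exact binomial adjusted p = 2.03e-05), and with mean transcript length it was not (−0.63, exact binomial adjusted p = 0.333). A processed pseudogene, BAK1P1 on chromosome 20, contains 13.1% of the 50-base words of the BAK1 transcript and had 0 and 29 counts. None of the other 9 canonical transcripts shared words with other genes except that of BCL2A1 (6.57%). The genes sharing them were ENSG00000288592 and the lncRNA gene ST20. ST20 had 3 and 535 counts, beside the 0 and 7 of BCL2A1. No member had a copy on the 261 alternate contigs of hg38 that were searched.

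The 3 tested BH3-only genes all had log2 ratios above 0, opposite in sign to those of the 4 tested genes with BH1 motifs. The other BH3-only gene, BBC3, did not pass the filter and had log2 ratios of −0.28 in CPM and −0.09 in TPM. Of the 3 tested only PMAIP1 was called in CPM, and the difference between the groups was not tested. PMAIP1 (NOXA; ENSG00000141682, chromosome 18, 59899996 to 59904305), whose small product binds MCL1, had 8 Nanopore and 778 Illumina counts. It stood at 19.8 CPM (8.57 to 39.1) by Nanopore and 4.06 CPM (3.78 to 4.35) by Illumina. The Nanopore level was 4.89 times the Illumina level (2.10 to 9.68), with a log2 ratio of 2.04 and an exact binomial adjusted p of 0.00203. At the Illumina CPM only 1.64 Nanopore counts would have been drawn. Division by length did not remove the gap: against 3.31 TPM the ratio was 5.99 (2.58 to 11.9) and the exact binomial adjusted p 5.87e-04. PMAIP1 overlaps no other annotated gene and stood at percentile 87.4 in CPM and 86.3 in TPM. It was the only member called in the same direction on both scales. Its Illumina level was under 5 CPM, so it passed the filter, with a mean of 11.9 CPM, only through its Nanopore value. BCL2, at 5.38 Illumina CPM with no Nanopore count, did not pass. With no filter on low values the exact binomial adjusted p of PMAIP1 was 0.00419.

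BAD (ENSG00000002330, chromosome 11, 64269830 to 64284704), which growth factor signalling keeps inactive through phosphorylation, had 23 and 5476 counts. Nanopore showed 57.0 CPM (36.2 to 85.6) and Illumina 28.6 CPM (27.8 to 29.3). Its log2 ratio of 0.97 lay just under 2-fold (exact binomial adjusted p = 0.0100), and it was called when scaling raised the log2 ratio to 1.06 (TMM) or 1.10 (median ratio). Against TPM the log2 ratio was 0.25, a linear ratio of 1.20 (0.758 to 1.80), and the exact binomial adjusted p 0.594.

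BID (ENSG00000015475, chromosome 22, 17734138 to 17774770), which caspase-8 cleaves to link death receptors to mitochondria, had 9 and 2199 counts. Its levels were 22.3 CPM (10.2 to 42.4) and 11.5 CPM, so the Illumina level lay within the Nanopore interval. The log2 ratio was 0.90 and the exact binomial adjusted p 0.161. Against TPM the ratio rose to 2.73 (1.25 to 5.20) and the exact binomial adjusted p was 0.0328. With mean transcript length it was no longer called (log2 ratio 1.14, exact binomial adjusted p 0.0794). BBC3 (PUMA; ENSG00000105327, chromosome 19, 47220822 to 47232766), whose product binds all of the main anti-apoptotic members, had 1 and 620 counts. Its levels of 2.48 CPM (0.0628 to 13.8) and 3.23 CPM (2.98 to 3.50) overlapped, and its transcript had the highest GC content of the family, 69.7%.

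**Figure D2:**
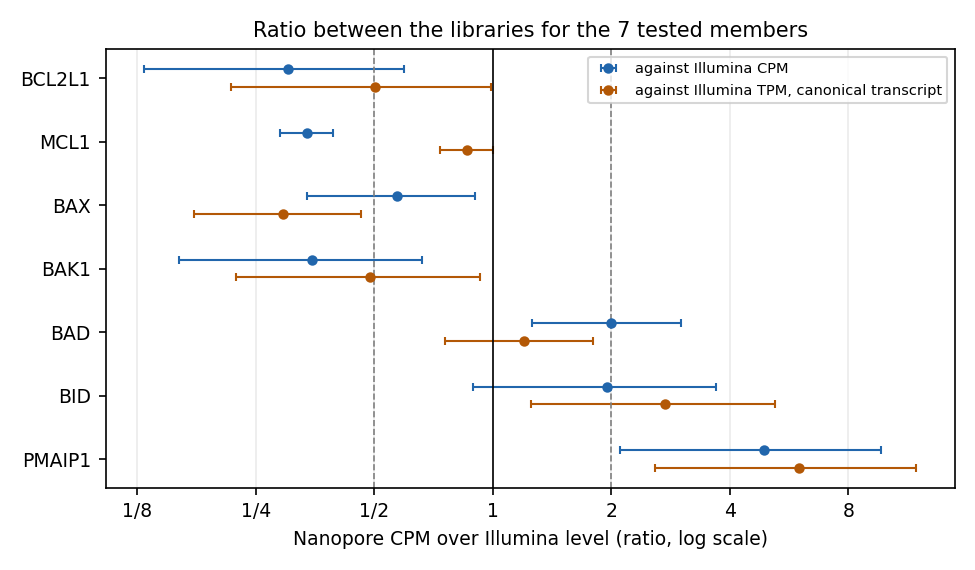
Nanopore CPM over the Illumina level for the 7 tested members on a log axis, against Illumina CPM and against Illumina TPM, with exact 95% counting intervals; dashed lines mark 2-fold. PMAIP1 lies above 1 with both intervals (4.89 and 5.99), MCL1 moves from 0.338 to 0.860 and BAX moves the other way, from 0.571 to 0.293.

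Length ordered the members only in part. Over all tested genes the median log2 ratio against Illumina CPM fell from 1.19 in the shortest of 5 classes of canonical transcript length (53 to 1284 bases) to −0.81 in the next to longest (3551 to 5374 bases). BAD (929 bases, log2 ratio 0.97) and BAX (795 bases, −0.79) both lie in the shortest class, with quartiles of 0.01 and 3.44. BAX was below that range. In the next class (1284 to 2308 bases, median −0.20, quartiles −0.83 and 0.61) PMAIP1 (1899 bases) and BID (2177 bases) were above the upper quartile and BAK1 (2170 bases) was below the lower one. BID and BAK1 differ by 7 bases in canonical length and had the same 9 Nanopore counts, but 2199 and 12304 Illumina counts. BCL2L1 and MCL1 also lay below the lower quartiles of their classes, −1.22 and −1.44.

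**Figure D3:**
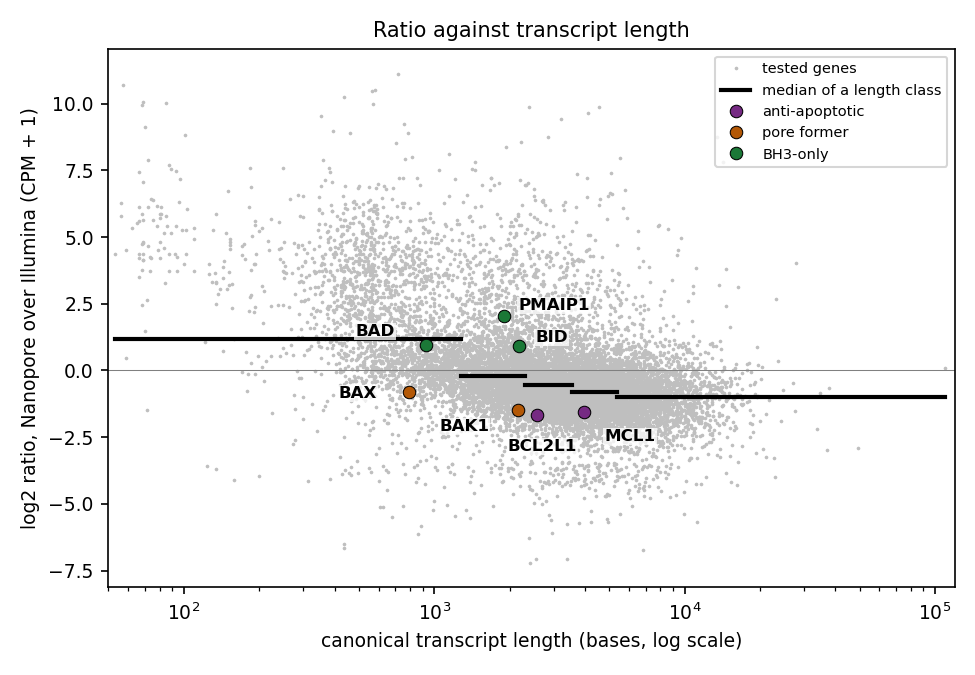
Log2 ratio of Nanopore over Illumina (CPM + 1) against canonical transcript length on a log axis for the tested genes, with the median of each length class as a bar and the 7 tested members by group. The 3 tested BH3-only genes lie above 0 and the 4 others below it, with PMAIP1 (2.04) and BAK1 (−1.48) apart within the same length class. BBC3 was not tested and is not shown.

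Several members share exonic bases with a neighbour on the other strand, and the counts of these neighbours are given because the strand setting of the counting is not given in the sources used here. BAD shares 404 exonic bases, 23.7% of its exons, with GPR137, a protein-coding gene on the opposite strand. GPR137 had 27 Nanopore and 5303 Illumina counts, beside the 23 and 5476 of BAD, and a log2 ratio of 1.25 (exact binomial adjusted p = 3.24e-04). BAK1 shares 91 exonic bases with the pseudogene GGNBP1 on the opposite strand, which had 9 Nanopore counts, the same number as BAK1, and 6 Illumina counts. Both genes of such a pair can have been credited with the same reads, and the part of this in the ratios of BAD and BAK1 was not tested.

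Of the 5 opposite-strand pairs of a member with shared exonic bases, 2 had Nanopore counts within 1 of each other and 3 did not. MCL1 shares 43 such bases with ADAMTSL4, which had 5 Nanopore counts beside its 164. MCL1 also shares 328 exonic bases with ADAMTSL4-AS1 on its own strand, which had 19 and 990 counts and a log2 ratio of 2.96. BCL2L1 shares 41.3% of its exonic bases with ABALON, an antisense lncRNA gene with 5 and 4557 counts, beside the 8 and 12613 of BCL2L1. The part of shared reads in the ratio of BCL2L1 was not tested either. The microRNA genes MIR3190 and MIR3191 lie whole within annotated BBC3 exons, and each had 1 Nanopore count, as BBC3 did, and no Illumina count. Among all tested genes that overlap another gene body 20.9% were called higher by Nanopore, against 5.98% of those that overlap none, the class of PMAIP1 and BAX.

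The other genes of the pathway were taken from 6 lists of 52 genes. At least 1 count was present for 50 of them by Nanopore and for 51 by Illumina. Of the 44 tested against Illumina CPM 4 were called higher by Nanopore and 13 higher by Illumina, beside the shares of 17.7% and 21.7% over all genes, and their median log2 ratio was −0.70. The median of the 7 tested members was −0.79. Against TPM 12 of 43 were called higher by Nanopore and 0 higher by Illumina in the exact binomial test, with a median of 0.28, where the members' median was −0.22 and that of all genes 0.49. Over all genes the shares called in TPM were 29.9% and 7.74%.

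Each of the other 13 members of the BCL2 family had few direct RNA reads. BNIP3 and BCL2L12 had the most, 23 and 22, with log2 ratios of 0.29 and −0.18 that were not called. BCL2L2, the anti-apoptotic BCL-W, was the only one of the 7 tested that was called in CPM, higher by Illumina with 10 and 11683 counts (log2 ratio −1.26, exact binomial adjusted p 0.00460). It was not called in TPM (−0.11), where of 6 tested genes BNIP3L, with 14 and 4954 counts, was called higher by Nanopore (linear ratio 2.99, 1.64 to 5.03, exact binomial adjusted p 0.00242). The exons of BCL2L2 are shared in part with the readthrough gene BCL2L2-PABPN1, which had 23 and 16502 counts. BCL2L11 (BIM), a BH3-only gene, had 3 and 1190 counts. BMF, another, had no Nanopore count and 412 Illumina counts. BCL2L14 had 2 Nanopore counts and was at 0 by Illumina.

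Downstream of the pore, cytochrome c (CYCS) had 157 Nanopore counts, close to MCL1, at 389 CPM against 340 CPM by Illumina (log2 ratio 0.20, not called). Its Illumina TPM was 96.9, for a log2 ratio of 2.00 against TPM, with the canonical transcript of 5432 bases. On that scale CYCS was called higher by Nanopore (exact binomial adjusted p = 6.05e-44). The caspases were rare by direct RNA reads, with 1 to 8 counts each. CASP8 and CASP2 were called higher by Illumina in CPM (log2 ratios −1.33 and −1.27) and neither in TPM. APAF1, the scaffold of the apoptosome, had 3 counts.

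Among the inhibitor of apoptosis genes and their antagonists BIRC3 (cIAP2) was called higher by Nanopore on both scales, with 15 and 1146 counts and log2 ratios of 2.45 (CPM) and 4.02 (TPM). Its Illumina TPM was 1.35, so on that scale BIRC3 passed the filter only through its Nanopore value of 37.2 CPM. XIAP and BIRC6 were called higher by Illumina in CPM, at −1.49 and −1.09. BIRC6, with a canonical transcript of 15687 bases, was called in the opposite direction in TPM (2.03). BIRC5 (survivin) was the most abundant of the list by Nanopore, with 45 counts. The channel genes VDAC1, VDAC2 and VDAC3, whose products sit in the membrane where BAK1 and BAX act, had 167, 113 and 44 counts. VDAC2 (log2 ratio 1.07) and ENDOG (1.77) were called higher by Nanopore in CPM, and in TPM too (1.04 and 1.36). AIFM1 was called higher by Illumina in CPM (−1.13) and not called in TPM (−0.62).

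Of the regulators upstream, MDM2, a ubiquitin ligase gene, had 12 Nanopore and 19196 Illumina counts and was called higher by Illumina in CPM, with a log2 ratio of −1.72. ATF4, an activator of stress genes and the most abundant of the list by Nanopore with 88 counts, was not called (−0.74). HUWE1, a ubiquitin ligase of MCL1, and USP9X, which removes ubiquitin from it, were called higher by Illumina in CPM, at −2.49 and −1.67, with canonical transcripts of 14731 and 12543 bases. In TPM HUWE1 was not called and USP9X was called higher by Nanopore (1.26). DDIT3 (CHOP), a stress transcription factor, was called higher by Nanopore with 23 and 1042 counts (3.17). It shares 355 exonic bases with MARS1 on the opposite strand, which had 27 Nanopore counts. Of the death receptor branch TNFRSF10B (DR5) was called higher by Illumina in CPM (−1.44) and not in TPM (−0.08), and TNFRSF1A was the most abundant by Nanopore, with 43 counts.

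**Figure D4:**
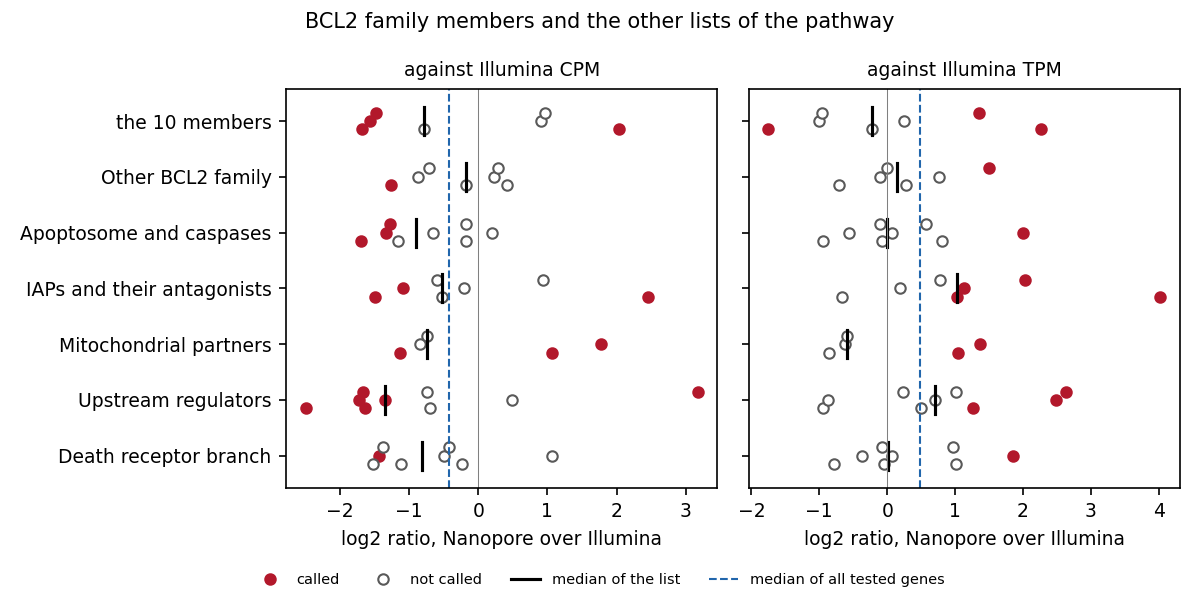
Log2 ratio of Nanopore over Illumina for the tested members and the tested genes of the 6 other lists, against Illumina CPM on the left and Illumina TPM on the right; filled points were called, black bars are list medians and the dashed line is the median of all tested genes (−0.42 and 0.49). The highest point among the lists is DDIT3 (3.17) on the left and BIRC3 (4.02) on the right, where BIRC3 passed the filter only through its Nanopore value.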

How the data were processed

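Each library has 1 table of raw counts per gene, in whole numbers, as deposited. Per the submitters' processing notes the build was hg38 and the tools named were minimap2 2.11-r797, HISAT2 2.1.0 and featureCounts. Their options, the annotation release and the strand setting are not given in the sources used here. Per the file headers, the Nanopore column carries a suffix with the letters talc. TALC is also the name of a program that corrects long reads with short reads, and whether such a step was run is not given in the sources used here. If it was, the libraries are not independent.

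Gene names, positions and lengths were taken from release 44 of GENCODE (hg38), in which 58207 of the 58735 identifiers were found. Counts were divided by library totals (CPM). The ratio used CPM plus 1, the filter was a mean of at least 5 CPM, and the test was an exact conditional binomial test (scipy 1.17.1). It was run on simulated counts drawn from the Illumina shares with counting error only. That simulation held no spread between libraries or platforms, so it cannot show how the test behaves where such spread is present. With 1 library per platform no model with replicate spread could be fitted. TPM used the length of the Ensembl canonical transcript. TMM factors came from edgeR 4.0.16 in R 4.3.3. Coding stretches and shared 50-base words were read from the GENCODE transcripts (biopython 1.88), and alternate contigs were searched with minimap2 2.31, asking for at least 80% of the transcript at no more than 5% divergence.

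All 10 members are described. Of each other list the genes called in CPM and the most abundant by Nanopore were to be named, up to 4. APAF1, VDAC3, BCL2L11, BMF, BCL2L14, BNIP3L, CASP6, FADD and the fifth and later genes of the list of upstream regulators were named after their values were seen. Members and lists were chosen with earlier results of these data known. A few genes of the lists are counted in the totals but not reported by name here.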

Additional observations from a re-analysis of the deposited data

How the results depend on the processing

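None of the 68 alternative values of the 7 tested members' log2 ratios changed sign: 53 stayed on the same side of the call, 8 lost it and 7 gained it, and the cause was not tested. The exact binomial adjusted p ranged from 1.07e-62 to 0.108 for MCL1, 1.64e-04 to 0.314 for BCL2L1, 2.03e-05 to 0.333 for BAK1, 1.08e-09 to 0.0871 for BAX, 0.00392 to 0.931 for BAD, 0.0140 to 0.300 for BID and 5.87e-04 to 0.00704 for PMAIP1. Members called higher by Nanopore were 1 as reported, 2 with TMM, median-ratio scaling (a shift of 0.127 in log2), canonical or union length or totals without mitochondrially encoded genes, and 0 with a mean of at least 20 CPM, where PMAIP1 was not tested. Those called higher by Illumina went from 3 to 1 with canonical, union or mean length.

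Over all genes, calls higher by Nanopore were 3492 with canonical length, 3410 with union length and 1174 at 20 CPM, against 2197. They were 164 when only the 2810 genes without overlap were tested. The 5.98% given above for such genes came from the test over all genes. Calls higher by Illumina were 905, 1152 and 1434 with canonical, union and mean length and 712 without overlap, against 2699. The anti-apoptotic share by Illumina was 66.4% by canonical length, 72.0% by union length, 68.5% by mean length and 87.1% in counts. Without MCL1 it was 13.6%, and 10.5% by Nanopore. No paired analysis was possible because each platform has 1 library. Depth limits every Nanopore value: 6 of the 7 tested members had 8 to 23 counts.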

Other observations

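Among the other genes of the pathway there were 32 pairs with a neighbour on the opposite strand that shares exonic bases. In 8 of them the Nanopore counts were within 1 of each other and in 24 they were not. Of the 13 pairs with at least 5 counts on both sides 5 were within 1. The pairs named here were chosen after their values were seen. ENDOG, a mitochondrial nuclease gene, and SPOUT1 had 21 Nanopore counts each, and 2785 and 10411 Illumina counts. FADD, the adaptor of death receptors, and the lncRNA gene ENSG00000254721 had 14 each, and 9525 and 6444. CASP6 and MCUB had 8 each, and 4344 and 4005. MDM2 and CPM, a carboxypeptidase gene, had 12 and 13, and 19196 and 1259. By contrast BCL2L12 and IRF3, which share 734 exonic bases, had 22 and 10. HTRA2 and LOXL3, with 936 shared bases, had 25 and 5, and BCL2L11 and MIR4435-2HG had 3 and 28. In 7 of the 24 pairs that were not within 1 the partner had no Nanopore count. Among them were BNIP3L and PNMA2 with 14 and 0 and CFLAR and IMPDH1P10, with 1488 shared bases, with 7 and 0. BMF and BMF-AS1 had 0 each and are among the 8 pairs within 1.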
